A study of Mus musculus with 2 samples.

Results

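Ror2, Fzd8 and Celsr3 are 3 cell surface proteins of the Wnt pathway. They were followed here in 2 clones of mouse mesoangioblasts, D16 and D351, measured on 1 array each. All probe sets annotated to 1 of these genes alone were taken, which gave 3 of the 11868 probe sets that were not manufacturer's controls, 1 for each gene and 3 of 5928 genes in all. The genes were chosen by their values in these same arrays, the ratio of D351 to D16 being past 2-fold, so their differences between the clones describe that choice and nothing was tested.

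Mesoangioblasts are vessel-associated mesodermal progenitor cells. Both clones came from the dorsal aorta of C57BL6 embryos at embryonic day 9.5, kept as an explant for 5 days. The dissociated cells were seeded at limiting dilution onto embryonic fibroblasts arrested with Mitomycin C, and colonies were then passaged on gelatin and expanded. Each array held total RNA of 1 clone, with no genetic change or treatment named, so a difference belongs to a pair of clones and to a pair of arrays, and nothing separates these.

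Wnt proteins are secreted, lipid-modified signals. Frizzled receptors such as Fzd8 bind them through a cysteine-rich domain and, together with Lrp5 or Lrp6, stop the destruction of beta-catenin, which then acts with TCF/LEF factors on target genes. Ror2 is a receptor of the tyrosine kinase family with a Frizzled-like cysteine-rich domain. It binds Wnt5a and acts mainly without beta-catenin on cell movement and polarity. Celsr3 is a large multi-pass cadherin of the Flamingo family, a core part of planar cell polarity that is best known for guiding axon tracts with Fzd3.

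The deposited intensity is linear, 1 value per probe set and array. The floor, 6.4, was the median of all values of both arrays. A value no higher than the floor was called dim and was set to the floor. Probe sets dim in both clones were left out, and the rest are called measured. Log2 ratios are D351 minus D16, and a ratio with 1 dim value is a bound. Background can be read from 19 bacterial and yeast controls, which reached 11.2. In 409 genes that had a pair of probe sets with no dim value, the pair's log2 ratios scattered with an SD of 0.67 per probe set. It is the only measure of scatter used here. Both probe sets of a pair were read on the same 2 arrays, so it leaves out differences between arrays or cultures. The hybridization controls were 1.59-fold brighter in D16, so each direction holds relative to the overall brightness of an array.

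The intensity of Ror2 (probe set 133639_r_at) was 10.3 in D16 and 107.7 in D351. The D16 value was above the floor but within the range of the bacterial and yeast controls, and the D351 value was well outside it. The deposited values give 10.5-fold (log2 ratio 3.39), but with D16 this close to background the fold is better read as a bound. Against the highest control, 11.2, the D351 value was 9.62-fold. With a higher floor, the 75th percentile or 20.7, Ror2 was dim in D16 and at least 5.20-fold higher in D351. The letter r in the identifier marks a probe set for which the manufacturer relaxed its rules of probe selection. Of 971 measured probe sets with this mark, 7.31% were at least 2-fold higher in D351, beside 9.90% of the 4335 without a mark.

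The intensity of Fzd8 (probe set 166437_f_at) was 96.9 in D16 and 253.5 in D351. Both values lay above every bacterial and yeast control, and Fzd8 is the 1 member of the 3 whose fold did not depend on where the floor was put. The difference was 2.62-fold (log2 ratio 1.39), at place 223 of the 3934 measured genes ordered from D351 to D16. The letter f marks probes that may match a family of similar sequences, and how much of this signal came from Fzd8 itself was not tested. Of 783 measured probe sets marked f, 11.0% were at least 2-fold higher in D351.

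The intensity of Celsr3 (probe set 136207_at) was 5.4 in D16 and 19.7 in D351. It was dim in D16, and in D351 it lay above the highest bacterial or yeast control but below the 75th percentile of all values. Against the floor of 6.4, Celsr3 was at least 3.08-fold higher in D351 (log2 ratio at least 1.62). Of the 38 values of the bacterial and yeast controls, 8 were above this floor, and against the highest of them the D351 value was 1.76-fold, under 2-fold. Without any floor the ratio of the deposited values was 3.65. Raising the floor to 20.7 made both Celsr3 values dim and left no fold. Celsr3 is the 1 member with a probe set without a mark. Among 1597 measured genes whose higher value was no more than 20.7, 6.39% were at least 2-fold higher in D351, against 12.9% of the 2337 brighter genes.

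**Figure D1:**
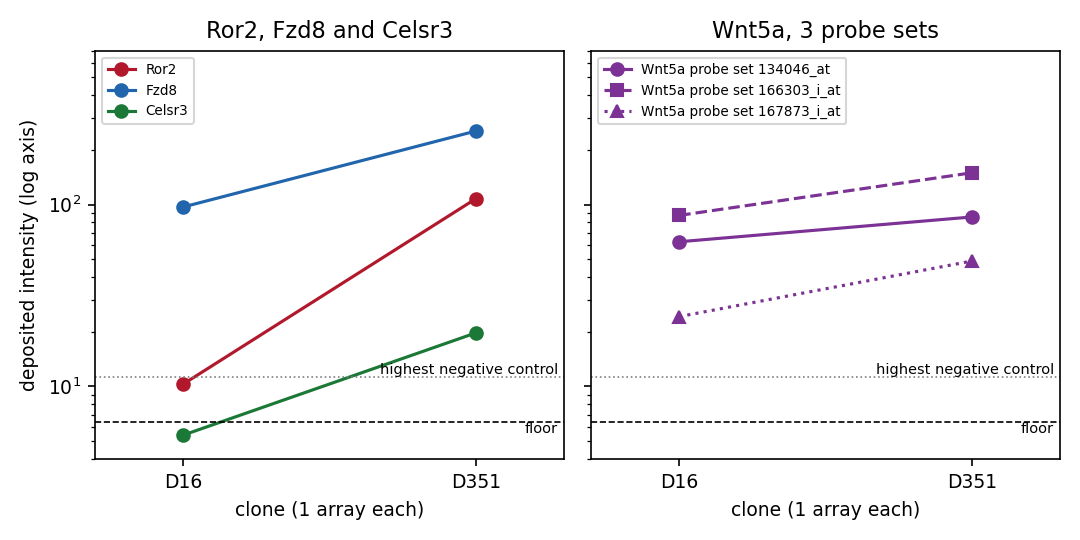
Deposited intensity (log axis) in clones D16 and D351, 1 array each, for Ror2, Fzd8 and Celsr3 (left) and the 3 probe sets of Wnt5a (right). Lines join the values of 1 probe set, the dashed line is the floor of 6.4 and the dotted line the highest bacterial or yeast control, 11.2; Ror2 and Celsr3 begin below the dotted line in D16, and Fzd8 and Wnt5a lie above it in both clones.

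Ror2 lies on chromosome 13 (53109317 to 53286124) and Celsr3 on chromosome 9 (108826023 to 108852969) of the RefSeq annotation of GRCm38.p6. The RefSeq promoter table held 2 of the 3 members, Ror2 and Celsr3. Their upstream bases are shown because the transcripts of both were higher in the same clone. Each runs 5′ to 3′ in the direction of the gene, Ror2 from the minus strand (chr13:53286125-53286374) and Celsr3 from the plus strand (chr9:108825795-108826022). Capitals mark CTTTG, the core bound by TCF/LEF factors, and GGGCGG, the GC box bound by Sp factors, on either strand.
Ror2: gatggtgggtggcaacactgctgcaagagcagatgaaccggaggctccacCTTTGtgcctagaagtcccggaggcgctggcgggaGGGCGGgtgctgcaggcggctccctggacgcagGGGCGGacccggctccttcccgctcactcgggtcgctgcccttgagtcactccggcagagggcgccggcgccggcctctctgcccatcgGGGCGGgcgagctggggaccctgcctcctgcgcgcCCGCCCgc
Celsr3: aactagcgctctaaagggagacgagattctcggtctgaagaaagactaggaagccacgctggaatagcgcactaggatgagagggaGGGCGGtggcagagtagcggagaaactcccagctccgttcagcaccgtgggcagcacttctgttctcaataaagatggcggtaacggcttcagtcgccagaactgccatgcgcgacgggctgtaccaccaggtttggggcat

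Of the 250 bases that the table gives before a start site, those of Ror2 held 1 CTTTG and 4 GC boxes. For Celsr3 only 228 of them lie before the annotated gene, and these, as printed, held 1 GC box and 0 CTTTG. The last 22 lie inside the gene and bring the GC boxes of the whole window to 2. On either strand, CTTTG occurred in 48.6% and GGGCGG in 32.7% of 32851 RefSeq promoters of the same length. The longer CTTTGAT, which contains CTTTG, occurred in 3.21% of them and TATAAA in 12.4%, and neither was found in the windows of these 2 genes. The Ror2 window was 73.2% G and C and held 24 CpG dinucleotides, and that of Celsr3 was 58% with 17, against medians of 52.4% and 6 over all promoters. Both windows are thus rich in CpG, Ror2 more so. A match describes the letters and is not a measured binding site.

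Genes with values near those of the members were looked up by the distance between floored log2 values over the 2 arrays. The levels of different probes are not comparable, so this only lists genes that read alike. For Ror2 the nearest was Stox2, at 8.9 in D16 and 95.5 in D351 (distance 0.27). The exchange factor gene Fgd3 (distance 0.49) and Cap2, of the cyclase-associated proteins that bind actin (0.52), followed. Nearest to Fzd8 were the calcium-binding Pvalb (0.13), the lysosomal membrane protein gene Lamp2 (0.14) and the RNA-binding Stau1 (0.16). Nearest to Celsr3 were Ccdc6 and the transporter gene Slc35a4, both at 19.7 in D351, and Mdga1. Their D16 values of 5.3, 3.9 and 5.7 and that of Celsr3 were all set to the floor, which makes the first distances 0.

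The other genes of the pathway were read from 8 lists by role. They held 224 symbols, some of them older and newer names of 1 gene, of which 72 were on this array and 54 were measured. In all, 4 of the 54 were at least 2-fold higher in D351, beside 10.3% of all 3934 measured genes, and 2 were at least 2-fold higher in D16, beside 10.2%. Of the 4, 3 were Ror2, Fzd8 and Celsr3, whose count was fixed by their choice. Without them 1 of 51 was higher in D351 and 2 in D16. These counts changed with the setting. Without marked probe sets 4 of 34, none of them a member, were higher in D16, beside 10.1% of all genes. In D351, 1 gene other than the members was then higher, beside 10.5% of all genes, so the order was the same. Scaled to the hybridization controls, the order was reversed. Then 12 Wnt genes other than the members were higher in D351, beside 27.6% of all genes, and 1 in D16, beside 3.64%. The median log2 ratio of the 51 was 0.07, against -0.02 over all measured genes.

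**Figure D2:**
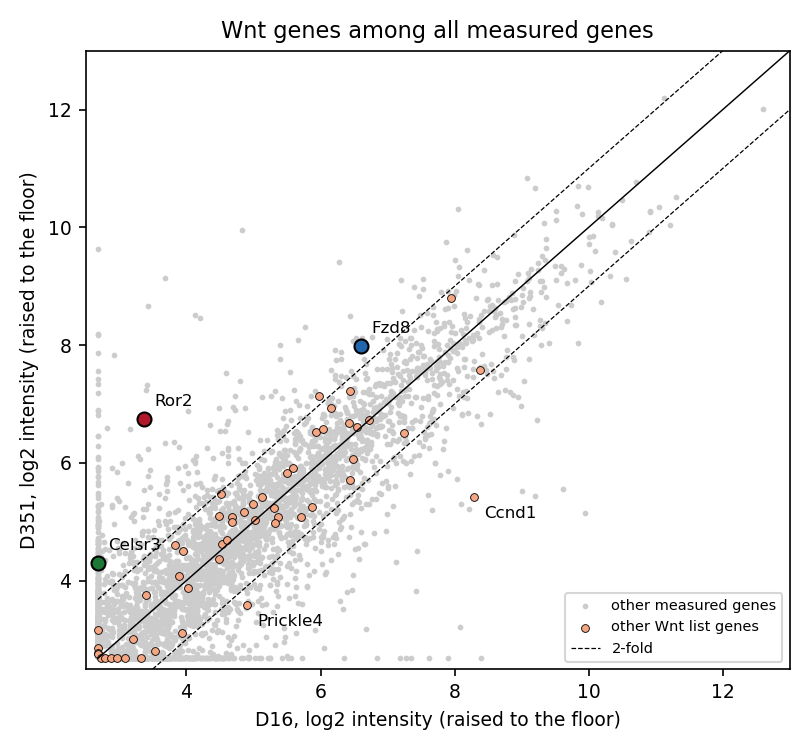
Log2 intensity in D16 (horizontal) and D351 (vertical) of all 3934 measured genes, dim values raised to the floor, with the 54 measured Wnt genes outlined and Ror2, Fzd8 and Celsr3 coloured. The solid line is equality and the dashed lines are 2-fold; most of the other Wnt genes lie between the dashed lines, Amer1 lies just above them, Ccnd1 and Prickle4 lie below them, and Celsr3 sits at the left edge because it was dim in D16.

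Among ligands, Wnt5a, the ligand of Ror2, was measured by 3 probe sets, each higher in D351. Its brightest probe set read 87.1 in D16 and 149.4 in D351, which is 1.72-fold. The next, the only 1 of the 3 without a mark, read 62.4 and 85.4, which is 1.37-fold. The last read 24.2 and 48.9, which is 2.02-fold. All 3 therefore leaned to the clone in which Ror2 was higher, but only the last passed 2-fold, and each log2 difference of 0.45 to 1.01 is near the SD of 0.67 between probe sets of a gene. None of the 6 measured ligands passed 2-fold by its brightest probe set, beside 10.3% of all measured genes towards D351 and 10.2% towards D16. Wnt2, at 48.3 in D16 and 60.2 in D351, Wnt4, at 35.0 and 42.8, and Wnt10b, at 22.3 and 20.7, differed by less than that SD. By its brightest probe set Wnt5b, a close relative of Wnt5a, read 11.6 in D16 and 7.0 in D351, while another was dim in D16 and at 8.5 in D351.

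Of the genes for Wnt secretion and secreted modulators, 3 of 24 were measured. Of these 3, 0 passed 2-fold, beside 10.3% of all measured genes towards D351 and 10.2% towards D16. Trabd2b, a protease that inactivates Wnt proteins, read 87.2 in D16 and 52.2 in D351. Porcn, the enzyme that attaches the lipid to Wnt proteins, read 40.1 and 31.4. The secreted antagonist gene Frzb was dim in D16 and at 6.8 in D351. The log2 ratios of Trabd2b (-0.74) and Porcn (-0.35) lay below 0. The median of this list was -0.35, against -0.02 over all measured genes. Scaled to the hybridization controls, which moves all genes, 4 genes of this list were measured. Both medians then turned positive, at 0.29 and 0.59.

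Among 8 measured receptors and co-receptors, Ror2 and Fzd8 had the largest log2 ratios, as their choice implies. Of the other 6, 0 passed 2-fold, beside 10.3% of all measured genes towards D351 and 10.2% towards D16. Their median log2 ratio was -0.28, and 5 were below 0. Of these 5, Fzd10, Gpc4 and Sdc4 were dim in D351 and, in D16, within the range of the bacterial and yeast controls. Without marked probe sets only 2 of the 6 were measured, with a median of 0.04, beside -0.01 over all genes. Scaled to the hybridization controls, 5 genes of the list other than the members were measured. Their median was 0.20, beside 0.59 over all genes. Fzd3, the Frizzled that works with Celsr3, read 52.4 in D16 and 34.0 in D351 (log2 ratio -0.62, and 0.05 with that scaling). Fzd10 was at 7.8 in D16 and dim in D351, and Fzd6 was dim in both clones. Lrp6, the co-receptor of Frizzled proteins, read 14.8 and 16.8, and Atp6ap2, which links Lrp6 to the proton pump, 41.1 and 34.0. Fzd8, chosen for passing 2-fold towards D351, was the only Frizzled of the 4 on this array that did so. Of the others, only Fzd3 was above the floor in both clones. Ror1 and the other Frizzled genes were not analysed here.

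**Figure D3:**
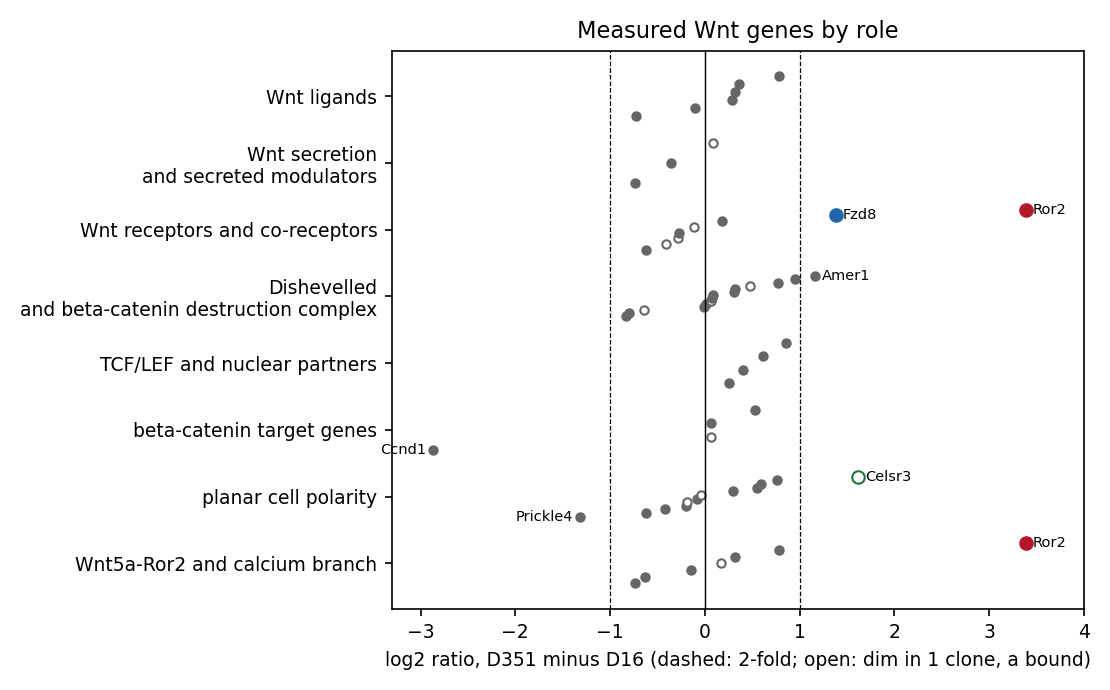
Log2 ratios (D351 minus D16) of the measured Wnt genes by role, 1 point per gene by its brightest probe set, with open points for genes dim in 1 clone and dashed lines at 2-fold. A gene on several lists is drawn in each; Ror2, Fzd8, Celsr3 and Amer1 lie beyond the line towards D351 and Ccnd1 and Prickle4 beyond that towards D16.

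The Dishevelled and destruction complex list, the machinery downstream of Frizzled, had 14 measured genes. Amer1, a membrane-bound partner of Apc, read 62.8 in D16 and 140.6 in D351, which is 2.24-fold. It was the only one past 2-fold, beside 10.3% of all genes. The casein kinase gene Csnk1e read 331.5 in D16 and 191.1 in D351, Csnk1d 105.8 and 105.5, and Dact3, of the Dapper proteins that bind Dishevelled, 45.4 and 56.8. The probe sets of Csnk1a1, the priming kinase for beta-catenin, disagreed, with log2 ratios of 0.01, 0.72 and -0.54. A second probe set of Csnk1d, at 15.9 in D16, was dim in D351. The median log2 ratio of the list was 0.09.

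In the nucleus, 4 partners of TCF/LEF factors were measured and all 4 had log2 ratios above 0, with a median of 0.51. However, 0 passed 2-fold, beside 10.3% of all measured genes towards D351 and 10.2% towards D16. Tle2, a Groucho corepressor, read 245.8 in D16 and 445.8 in D351. Bcl9, which joins beta-catenin to Pygopus, read 22.4 and 34.2, and Pygo1 25.6 and 33.9. The remodelling ATPase gene Smarca4 read 85.5 and 102.1, with a second probe set at 84.3 and 94.4. The TCF/LEF genes themselves were not analysed here.

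Of the beta-catenin target genes, Ccnd1, cyclin D1 of the G1 phase, read 312.6 in D16 and 42.7 in D351 and was thus 7.32-fold higher in D16. This direction is opposite to that of Fzd8. Ccnd1 is also controlled by many growth signals outside the Wnt pathway. Neither a link to Fzd8 nor any other cause of the Ccnd1 difference was tested. Sp5, a Sp family factor, read 65.8 in D16 and 95.3 in D351. Sox9 read 93.1 and 97.7 by its brightest probe set and 25.9 and 18 by another. The feedback inhibitor gene Nkd1 was dim in D16 and at 6.7 in D351. Only 4 genes of the 39 symbols on this list were measured, with a median log2 ratio of 0.07.

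Planar cell polarity, the branch of Celsr3, had 11 other measured genes. By their brightest probe sets, 0 of these were at least 2-fold higher in D351, beside 10.3% of all measured genes, and 1 in D16, beside 10.2%. This was Prickle4, a relative of the core polarity protein Prickle, at 30.0 in D16 and 12.0 in D351, or 2.5-fold; with the floor at 20.7 its log2 ratio was -0.54 and no longer past 2-fold. Celsr2, the relative of Celsr3, stood at 7.3 in D16 and was dim in D351, both within the range of the bacterial and yeast controls. Prickle1 read 39.6 and 37.5 by its brightest probe set, and 31.6 and 10.1 by another. The kinase gene Mapk9 read 71.5 and 121.5, and Fuz, a polarity effector of cilia, 89.4 and 66.6, with a second probe set at 29.2 and 11.2. The probe sets of Mapk8 disagreed, at 61.3 in D16 and 92.3 in D351 by the brightest and at 26.4 and dim in D351 by another. A further probe set of Mapk8 leaned to D351, at 9.5 and 18.6. The dimmer probe sets given here for Prickle1 and Fuz, and the Mapk8 one dim in D351, passed 2-fold towards D16. Without marked probe sets, 2 of 8 genes other than Celsr3 were higher in D16, beside 10.1% of all genes, and 0 in D351, beside 10.5%. The median of the 11 was -0.08, beside -0.02 over all genes. Scaled to the hybridization controls, 9 genes of the list other than Celsr3 were measured, and both medians were 0.59. Celsr1 was not analysed here.

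Of the Wnt5a, Ror2 and calcium branch, 6 genes other than Ror2 were measured, with a median log2 ratio of 0.01. Of these 6, 0 passed 2-fold, beside 10.3% of all measured genes towards D351 and 10.2% towards D16. Beside Wnt5a, the calcium-dependent kinase gene Camk2d read 152.2 in D16 and 91.2 in D351. Map3k7, a kinase upstream of Nlk, read 58.7 and 37.9. By its brightest probe set, Ror2 was the 1 measured gene of this list past 2-fold, which for Ror2 itself was fixed by its choice.

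Across the 10 Wnt genes with several measured probe sets, all log2 ratios were above 0 for 3 (Wnt5a, Dact3 and Smarca4), all below 0 for 2 (Csnk1d and Fuz), and on both sides for 5. The brightest probe set of Csnk1d, at -0.004, read nearly the same in both clones, so its probe sets share little more than a sign. Ror2, Fzd8 and Celsr3 have 1 probe set each, so none of them has such a second reading.

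Measured markers of smooth muscle and of embryonic fibroblasts were higher in the same clone as the 3 receptors. The smooth muscle gene Acta2 is also on the mesoangioblast list. Of all measured genes, 10.3% were at least 2-fold higher in D351. Of the smooth muscle markers, 4 of 13 were measured and all 4 were at least 2-fold higher in D351. Lmod1 and Acta2 were dim in D16, so they were measured only through D351 and could pass in that direction alone. The D351 value of Acta2, 15.4, was close to the highest bacterial or yeast control, 11.2. The marker lists were chosen with earlier results of these data known, so their counts only describe the readings. Summed intensities over 5 genes were 111.5 in D16 and 1091.2 in D351, most of it Itga8 (77.6 and 678.3). Lmod1 read 2.6 and 288.2, and Synpo2 also had a probe set at 0.1 on both arrays. Levels of different probes are not comparable, so sums only describe the readings. Of the markers of embryonic fibroblasts, the feeder cell type, 3 of 14 were measured and all 3 were at least 2-fold higher in D351, with sums over 4 genes of 628.7 and 2232.6. Most of these sums is Col5a1 (543.2 and 1838.3), read by a probe set marked f. Second probe sets of Col5a1 (1.1 and 2.1) and of Mfap5 (2.4 and 2.0) lay below the floor on both arrays. Of the smooth muscle list Myocd, and of the fibroblast list Col5a2, were dim in both clones. Of the neural list, relevant because Celsr3 is known from neurons, only Elavl3 was measured (9.5 in D16 and 11.8 in D351), while Nes and Gfap were dim in both. The part of these cell types in the values of Ror2, Fzd8 and Celsr3 was not tested. In a bulk sample, more cells of a type and more RNA per cell cannot be told apart. Of 15 mesoangioblast markers, 2 were on this array, Kdr (1.6 in D16 and 9.5 in D351) and Acta2 (4.7 and 15.4), both dim in D16, so the labelled cell type could hardly be checked. Of the endothelial list 3 genes were measured, 1 at least 2-fold higher in each clone. Towards D16 the share of all measured genes was 10.2%. Flt1 rose from a dim 1.3 in D16 to 87.6 in D351, at least 13.7-fold. Egfl7 went the other way, from 19.5 in D16 to a dim 3.8 in D351, at least 3.05-fold. Of the epithelial list 2 genes were measured and of the haematopoietic list 1, and 0 of these 3 passed 2-fold.

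**Figure D4:**
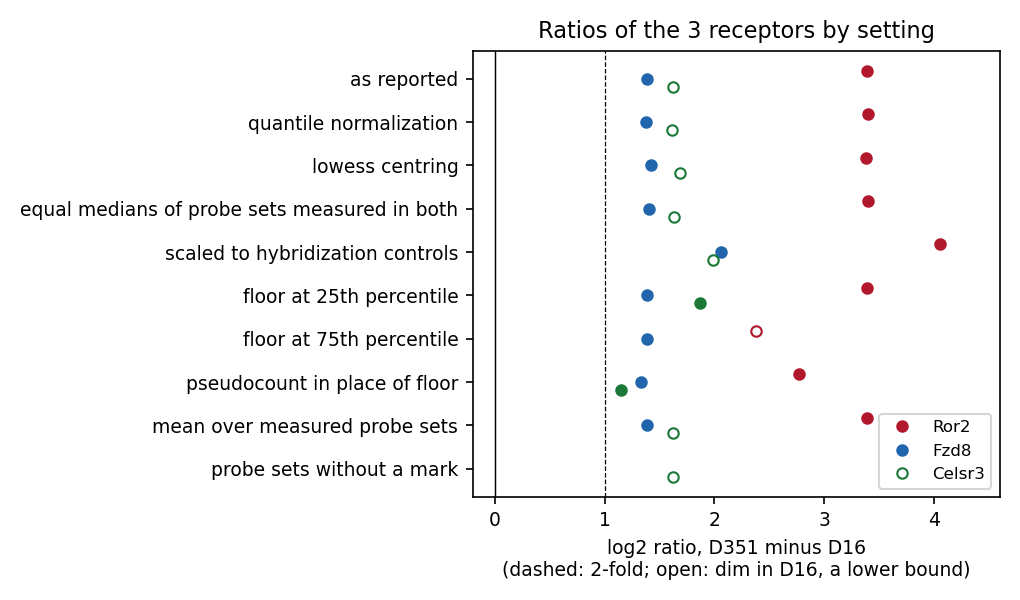
Log2 ratios (D351 minus D16) of Ror2, Fzd8 and Celsr3 under each way of processing the arrays, with open points where the D16 value was dim and the ratio is a lower bound. All points lie beyond the 2-fold line, which the choice of these genes on the same arrays largely implies. Celsr3 has no point for the highest floor, where both its values were dim. Ror2 and Fzd8 have none where probe sets with a mark were left out.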

How the data were processed

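The authors deposited 1 linear intensity per probe set for each array; the software that made it is not given in the sources used here. The mean without the lowest and highest 2% was 20.01 on both arrays, and values were used as deposited. The 66 control probe sets were set aside. The platform annotation named 1 gene for 7717 of 11868 probe sets, several for 150 and none for 4001; of the 7717 gene identifiers, 7677 were found in RefSeq (GRCm38.p6). Each gene is given by the probe set whose floored log2 values had the highest mean, called its brightest.

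No test was possible with 1 array per clone, and precision is limited by that number. A difference was described by 2-fold. The rule for names took every probe set of the members, every measured Wnt gene past 2-fold and the brightest others up to 4 per list, relatives of the members, genes whose probe sets disagreed in sign beyond 0.5 log2, and the 3 nearest genes per member. Other genes or probe sets given were chosen after their values were seen. Members and lists were chosen with earlier results of these data known. The alternatives were other scalings, floors, probe set choices and a 3-fold rule. The tools were statsmodels 0.14.6, scipy 1.17.1, matplotlib 3.10.9, pandas 2.3.3 and numpy 2.4.6 under Python 3.11.15.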

Additional observations from a re-analysis of the deposited data

How the results depend on the processing

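Ror2, Fzd8 and Celsr3 were higher in D351 under every alternative that gave them a value. They were chosen for this direction, and the alternatives only reprocess the same 2 arrays, so this is no independent check. With the floor at the 75th percentile Ror2 was dim in D16 and its log2 ratio was at least 2.38, a lower bound that the reported 3.39 meets. Celsr3 gave no value with this floor. Without marked probe sets Ror2 and Fzd8 gave none. Scaling to the hybridization controls moved the median of all genes from -0.02 to 0.59. It made 15 of 53 Wnt genes at least 2-fold higher in D351, beside 27.6% of all genes, and 1 higher in D16, beside 3.64%; of all 2-fold calls, 88.3% then lay towards D351, against 50.1% as reported. With the floor at the 25th percentile the counts were 9 and 9 of 67 Wnt genes, beside 14.6% and 15.6% of all genes. Without marked probe sets they were 2 and 4 of 34, beside 10.5% and 10.1%, and with a 3-fold rule 2 and 1 of 54, beside 4.58% and 3.56%. The counts towards D351 include the members, which were fixed by choice. The count higher in D16 was 1 with the floor at the 75th percentile and 1 with a pseudocount, where Prickle4 no longer passed. The numbers of genes tested differ between these settings, and other causes were not tested. No paired analysis was possible because each clone has 1 array.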
